A study of Drosophila melanogaster with 2 samples.

Results

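The genes described here encode the initiation and elongation factors of cytoplasmic translation. They are the 51 protein-coding genes, of 13945 on the main chromosomes of Drosophila melanogaster, whose symbol in the Ensembl BDGP6.54 annotation starts with eIF or eEF and a digit. By role they fall into 7 elongation factors, 11 genes for eIF2 with its exchange and activating factors, 16 genes for eIF3 subunits, 13 genes for the eIF4 cap complex and 4 other initiation factors, eIF1, eIF1A, eIF5B and eIF6. A gene is called bound where the summit of a deposited region lay within 500 bp of any of its annotated transcription start sites (TSSs).

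The study mapped the genomic binding of E2f1, a cell-cycle transcription factor, by chromatin immunoprecipitation and sequencing. The flies carried a transgene for E2f1 fused to eGFP (enhanced green fluorescent protein), and the precipitation used an antibody to GFP, so the values describe the fusion protein and not the untagged one. There was 1 group, E2f1-eGFP whole embryos collected at 0-24 h, with 2 biological replicates and DNA sonicated to 200-800 bp. Whole embryos of all these ages were pooled, so a region cannot be assigned to a cell type or an hour, and marker expression cannot be read from binding regions. A further experiment, offered in the labels as a control, was not used here. The labels do not say whether the flies kept untagged E2f1.

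Translation initiation begins when eIF2 brings the initiator tRNA to the small ribosomal subunit, where eIF1, eIF1A and the eIF3 complex help the subunit scan the mRNA for a start codon. The eIF4 factors recognise the mRNA cap and unwind the leader, eIF5B joins the large subunit, and the elongation factors then deliver aminoacyl-tRNAs and move the ribosome along. E2f1 is best known as a partner of Dp at genes of DNA replication and the cell cycle, at sites that follow the E2F consensus.

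The 4 region sets were compared, each with every global irreproducible discovery rate (IDR) at 0.01 or lower. The reproducible set held 4439 regions over both replicates, the larger set 5167, replicate 1's own set 3779 and replicate 2's own set 3280. Median region widths ran from 304 to 344 bp. The deposited files hold regions and not reads, so read depth is unknown. Heights are the authors' own scores with no stated rescaling between libraries. They are compared here only among the regions of a single set or ranked list.

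The sequences of 7 regions at members are given because they show the differing letters under the summits. Each runs 5′ to 3′ in the gene's direction, in the dm6 build, with sequence from the RefSeq Release 6 genome. Capitals mark either the E2F consensus (spelled TTCCCGC, or with a changed middle TTCGCGC, or in the third form TTGCCGC, or in the fourth TTGGCGC, on either strand) or the core of the DREF element (TATCGATA), which is bound by the replication-related element factor DREF. The stretch at eEF1gamma (chr3R:29220023-29220181, plus strand) and that at eIF3a (chr3R:4433886-4433974, minus strand) hold a DREF core. The one at eIF1 (chr3L:3222951-3223093, plus strand) holds both motifs, while eIF3d1 (chr3R:23679909-23680048, plus strand) and eIF4G2 (chr3R:23819228-23819413, minus strand) hold the E2F consensus. Those at eIF3h (chr2L:5052379-5052520, minus strand) and eIF4EHP (chr3R:24109114-24109314, minus strand) hold neither.
eEF1gamma: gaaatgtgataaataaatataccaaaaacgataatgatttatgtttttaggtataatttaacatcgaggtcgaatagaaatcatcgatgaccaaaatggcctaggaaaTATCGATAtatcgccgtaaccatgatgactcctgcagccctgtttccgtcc
eIF1: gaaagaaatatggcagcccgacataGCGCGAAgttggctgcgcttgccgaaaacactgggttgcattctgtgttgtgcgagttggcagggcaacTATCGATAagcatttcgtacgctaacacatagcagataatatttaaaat
eIF3a: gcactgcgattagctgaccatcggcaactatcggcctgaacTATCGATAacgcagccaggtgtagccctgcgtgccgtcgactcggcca
eIF3d1: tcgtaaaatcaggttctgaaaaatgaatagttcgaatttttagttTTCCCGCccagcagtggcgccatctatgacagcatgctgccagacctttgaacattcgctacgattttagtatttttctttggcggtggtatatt
eIF4G2: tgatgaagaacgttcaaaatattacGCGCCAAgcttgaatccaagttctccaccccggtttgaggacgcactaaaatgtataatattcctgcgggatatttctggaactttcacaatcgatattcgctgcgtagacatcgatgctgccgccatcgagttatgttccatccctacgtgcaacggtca
eIF3h: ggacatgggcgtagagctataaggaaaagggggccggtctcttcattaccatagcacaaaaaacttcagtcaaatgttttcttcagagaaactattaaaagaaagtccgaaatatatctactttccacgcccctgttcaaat
eIF4EHP: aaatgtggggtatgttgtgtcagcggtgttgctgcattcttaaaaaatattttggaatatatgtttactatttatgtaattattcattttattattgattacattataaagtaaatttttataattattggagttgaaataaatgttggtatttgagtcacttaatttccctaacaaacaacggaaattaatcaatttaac

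Of the 51 genes, 12 were bound in the reproducible set, or 23.5%, where 17.6% of all 13945 coding genes were bound. The count was 11 in the larger set (21.6%, against 19.7% of all genes). In the replicates' own sets it was 12 in replicate 1 (23.5%, against 15.8% of all genes) and 8 in replicate 2 (15.7%, against 13.8% of all genes). The 8 genes of replicate 2 were all bound in replicate 1 too, so 15.7% of members were bound in both replicate sets, where 11.4% of all genes were. The share of members was above that of all genes in each set, by amounts that were not tested, so nothing is read from them about these genes. The 8 genes bound in all 4 sets were eEF1alpha1, eEF1gamma, eEF5, eIF1, eIF3c, eIF3h, eIF5B and eIF6.

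**Figure D1:**
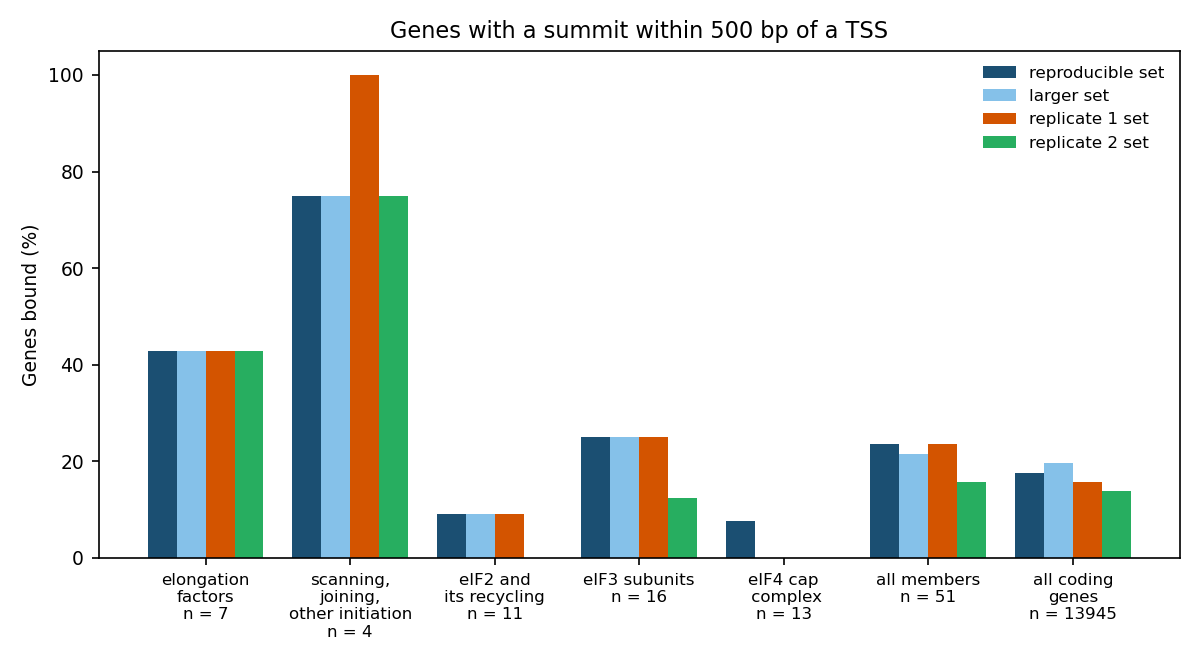
Percentage of genes bound (y axis) in each role group, in all 51 members and in all 13945 coding genes, with 1 bar for each of the 4 region sets and the number of genes under each group. Elongation factors and the group of eIF1, eIF1A, eIF5B and eIF6 stand above the all-gene bars in every set, and the eIF4 group has a bar in the reproducible set alone.

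The role groups differed in their counts. Over all genes 17.6% were bound in the reproducible set, 19.7% in the larger set, 15.8% in replicate 1 and 13.8% in replicate 2. In the reproducible set 3 of the 4 genes eIF1, eIF1A, eIF5B and eIF6 were bound, and in replicate 1 all 4 were. At eIF1 and eIF6, and at eIF1A in replicate 1, another gene's TSS was nearer to the summit of the highest region. Of the elongation factors 3 of 7 were bound, the same 3 in all 4 sets. Of the eIF3 genes 4 of 16 were bound in the reproducible set, the larger set and replicate 1, and 2 in replicate 2. Of the eIF2 genes 1 of 11 was bound, in every set but replicate 2. Of the eIF4 genes 1 of 13 was bound in the reproducible set and 0 in the other 3 sets. These groups are small, and their shares are descriptions.

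eIF6, which keeps the large ribosomal subunit from joining too early and takes part in its assembly, had the highest region of any bound member. Its region (chr2R:23850254-23850564) had a height of 1418 in the reproducible set, 639.0 in replicate 1 and 781.8 in replicate 2. It ranked 13 of 4439 in the reproducible set, 21 of 3779 in replicate 1 and 9 of 3280 in replicate 2, so it stood near the top of each list. The summit lay at −105 bp from the eIF6 TSS in the reproducible set, at −107 bp in replicate 1 and at −113 bp in replicate 2. An antisense RNA gene, asRNA:CR45928, starts closer, 76 bp before the summit on the other strand, and the summit falls in its exon. The region holds a DREF core 94 bp from the summit and no E2F consensus.

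eIF5B, the GTPase that joins the ribosomal subunits, had a region (chr3L:3460535-3460878) of height 221.0 in the reproducible set, 99.22 in replicate 1 and 130.9 in replicate 2. It ranked 858 of 4439 in the reproducible set. Its summit moved more between libraries than those of most members, from −64 bp in replicate 1 to −163 bp in replicate 2, with −104 bp in the reproducible set. The summit falls in the 5′ UTR of a longer eIF5B transcript that starts further upstream. The region holds the core of promoter motif 1 (GGTCACACT) 134 bp from the summit, and 5 summits of the reproducible set lie within the gene.

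eIF1, which guards the choice of start codon, had a region (chr3L:3222821-3223164) of height 149.5 in the reproducible set, 97.48 in replicate 1 and 48.77 in replicate 2. Replicate 1 lay above its set's median for bound genes (87.02) and replicate 2 below its own (77.96). The summit at −348 bp was the farthest upstream of the highest regions at bound members. It lies at −33 bp from the TSS of RpL28, a ribosomal protein gene on the other strand, so the region cannot be assigned to either gene. The E2F consensus in the printed sequence lies 11 bp from the summit, and the DREF core 52 bp. The region also holds an E-box (CACGTG), the site of the growth regulator Myc, 161 bp from the summit.

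eIF1A, the partner of eIF1 in scanning, was bound in replicate 1 alone. That region had a height of 43.28, an IDR of 0.00817 and a summit at −139 bp, with the TSS of Vps39 nearer at −80 bp. In replicate 2 no candidate region lay within 500 bp, and over both replicates the same candidate had an IDR of 0.747 in the list behind the reproducible set and of 0.0183, near the limit, in the list behind the larger set.

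Among the elongation factors, eEF1gamma, the structural subunit of the exchange complex for eEF1alpha, had the highest region. Its height was 372.4 in the reproducible set, 242.5 in replicate 1 and 119.4 in replicate 2. It ranked 330 of 4439, 244 of 3779 and 651 of 3280, above the median of bound genes in each set. The summit lay between −58 and −37 bp in all sets, in intergenic sequence with no TSS of another gene within 500 bp. The DREF core of the printed stretch lies 17 bp from the reproducible summit, and the replicate 2 summit falls within it.

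eEF1alpha1, which carries aminoacyl-tRNA to the ribosome, had a region (chr2R:11892010-11892106) of height 181.9 in the reproducible set, 103.4 in replicate 1 and 76.55 in replicate 2. The gene has 4 annotated TSSs. The summit lay at −77 bp from one of them, inside an intron and 910 bp downstream of the main TSS. The replicates placed it at −85 and −86 bp, so all sets placed it close together. The reproducible region is only 97 bp wide and holds none of the motifs. The wider replicate regions, of 336 and 304 bp, hold an E2F consensus 28 and 27 bp from their summits.

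eEF5, the hypusine-bearing factor also known as eIF5A, had a region (chr2R:24057631-24057974) of height 101.9 in the reproducible set, 70.23 in replicate 1 and 40.26 in replicate 2. All 3 values lay below the median of bound genes in their set. The summit fell in the 5′ UTR, at 5 bp from the TSS in the reproducible set, 8 bp in replicate 1 and 23 bp in replicate 2. No motif searched was found in the region. The larger set held a further region of height 55.95 at −494 bp, nearer to ppk29, just inside the distance limit.

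The other 4 elongation factors were bound in no set. For eEF2, the factor that moves the ribosome along the mRNA, no ranked list held a candidate within 500 bp, and the nearest reproducible summit lay 24508 bp downstream of its TSS. eEF1alpha2, the paralog of eEF1alpha1, had only candidates with an IDR of 0.5 or higher. eEF1beta, an exchange factor for eEF1alpha, had a lowest IDR of 0.199 in any list, and eEF1delta, its relative, 0.359.

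**Figure D2:**
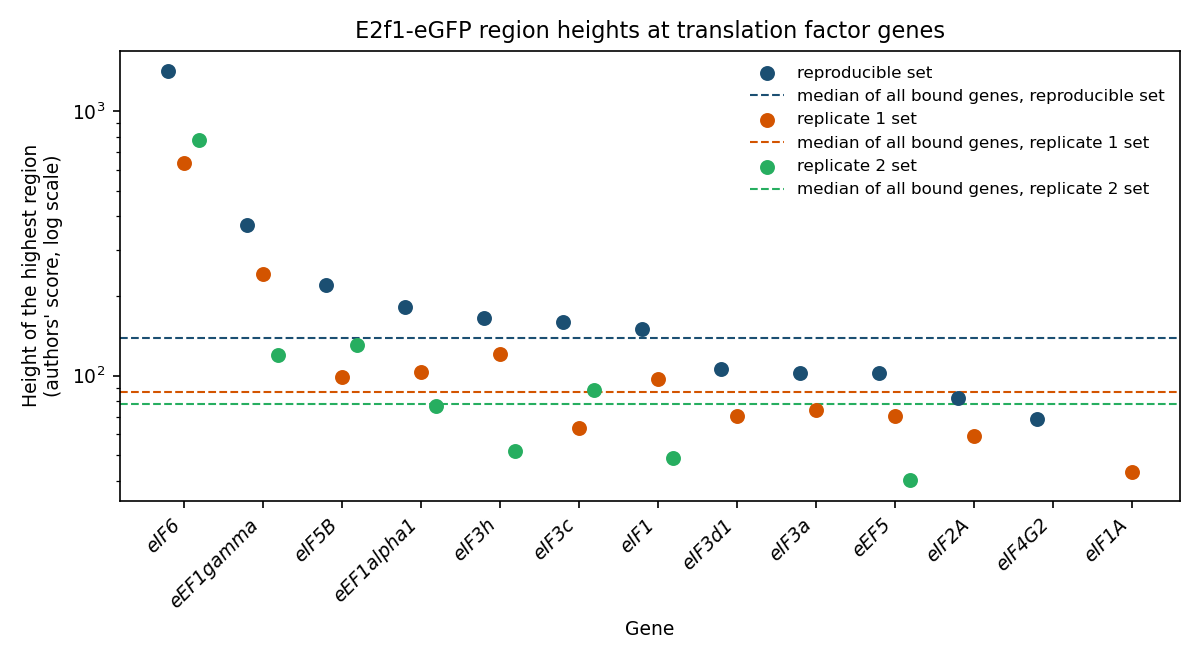
Height of the highest region at each bound member (y axis, log scale, the authors' score) in the reproducible set and in each replicate's own set, with dashed lines at the median over all bound genes of that set. eIF6 stands far above the rest, eIF4G2 has a point in the reproducible set alone and eIF1A in replicate 1 alone.

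Of the eIF3 subunits, eIF3h, eIF3c, eIF3d1 and eIF3a were bound. eIF3h had a region (chr2L:5052379-5052520) of height 165.0 in the reproducible set, 120.9 in replicate 1 and 52.09 in replicate 2. Unlike at the highest regions of the other bound members, its summit lay well downstream of the gene's nearest TSS, at 314 bp, in an intron. The replicates placed it at 293 and 331 bp. From the main eIF3h TSS the reproducible summit lay at 628 bp. By that measure eEF1alpha1, at 910 bp, and eIF2A, at 224 bp, were also downstream. The neighbour senju starts on the other strand, farther from the summit. The larger set held 2 further regions there of heights 51.68 and 4.17, and replicate 2 held 1 of height 21.63, none of them in the reproducible set.

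eIF3c, a scaffold subunit, had a region (chr2R:17665426-17665769) of height 159.3 in the reproducible set, 63.5 in replicate 1 and 88.51 in replicate 2. It lay below the median of bound genes in replicate 1 and above it in replicate 2. The intergenic summit was at −80 bp, with −71 and −47 bp in the replicates, and a DREF core lay 133 bp from it.

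eIF3d1 and eIF3a were bound in 3 sets, with replicate 2 as the exception. The eIF3d1 region (chr3R:23679837-23680180) had a height of 106.3 in the reproducible set and 70.31 in replicate 1. The replicate 2 candidate had a height of 33.91 and an IDR of 0.0351, so it missed the 0.01 limit. The summit lay at −30 bp, 49 bp from the E2F consensus of the printed stretch.

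The region at eIF3a, another scaffold subunit, spans chr3R:4433753-4434096. Its height was 102.0 in the reproducible set and 73.93 in replicate 1. The replicate 2 candidate had a height of 34.09 and an IDR of 0.767. The summit lay at −30 bp from eIF3a and −40 bp from the divergent gene CG1074, so it sat between both starts, 1 bp from the DREF core. In replicate 1 CG1074 was the nearer gene, at −34 bp against −36 bp.

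The remaining 12 eIF3 genes, eIF3b, eIF3d2, eIF3e, eIF3f1, eIF3f2, eIF3g1, eIF3g2, eIF3i, eIF3j, eIF3k, eIF3l and eIF3m, were bound in no set. The closest to the limit was eIF3m, with an IDR of 0.0261 in the list behind the reproducible set, 0.646 in that behind the larger set, 0.729 in replicate 1 and 0.0864 in replicate 2. No list held a candidate for eIF3d2, eIF3f2, eIF3i or eIF3l. Of the paralog pairs, eIF3d1 was bound and eIF3d2 was not, and neither gene of the pairs eIF3f1 and eIF3f2 or eIF3g1 and eIF3g2 was bound.

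In the eIF2 group, eIF2A alone was bound. It encodes a factor that, in work on yeast and mammals, can bring in the initiator tRNA without eIF2. Its region (chr3L:21824792-21825135) had a height of 82.1 in the reproducible set and 59.15 in replicate 1, both below the median of bound genes. The replicate 2 candidate had a height of 26.41 and an IDR of 0.807. The summit lay at −1 bp from the downstream of 2 TSSs, in the 5′ UTR of the longer transcript, with a DREF core at 81 bp and an E2F consensus at 113 bp. A weaker region beside it had a height of 23.62 and a q value of 0.96 in the authors' −log10 q column.

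The other 10 genes of that group were bound in no set. They are eIF2alpha, eIF2beta and eIF2gamma, the 3 subunits of eIF2, the 5 subunits of its exchange factor from eIF2Balpha to eIF2Bepsilon, eIF2D, a noncanonical tRNA-binding factor, and eIF5, the GTPase activator. The lowest IDR among them was 0.0166, for eIF2gamma in replicate 2, where replicate 1 gave 0.865 and the lists over both replicates 0.627 and 0.0401. eIF2Bgamma reached 0.0427 in replicate 1 and 0.771 in replicate 2, so neither gene approached the limit in both libraries.

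In the eIF4 group, eIF4G2 was the only bound gene. It encodes a relative of the scaffold eIF4G1 known for its part in spermatogenesis. Its region (chr3R:23819070-23819413) was in the reproducible set alone, with a height of 68.63, an IDR of 0.00495 and a q value of 0.0765. In the list behind the larger set the same summit had an IDR of 0.7. The candidates nearest to that TSS in the replicates had a height of 43.98 and an IDR of 0.734 in replicate 1, at 57 bp, and a height of 27.14 and an IDR of 0.804 in replicate 2, at −24 bp. The summit at −5 bp belongs to a TSS that eIF4G2 shares with CG33111, inside an intron of CG34355. The E2F consensus of the printed stretch lies 140 bp away.

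eIF4EHP, the cap-binding relative of eIF4E that represses translation in the early embryo, was counted as unbound, although a high region lay at its promoter in every ranked list. The region (chr3R:24109017-24109375) had a height of 964 over both replicates, 526.4 in replicate 1 and 427.9 in replicate 2. Its IDR was 1e-05, the lowest value the lists hold, in all 4 lists, and it ranked 44 of 120213 candidates over both replicates. Only eIF6 was higher among members. The summit lay at −254 bp from eIF4EHP, at −226 and −263 bp in the replicates, and at −122 bp from CG18428, which is nearer.

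None of the 4 thresholded sets holds the eIF4EHP region. It is one of 103 regions, of 4542 at an IDR of 0.01 or lower in the ranked list over both replicates, that the reproducible set leaves out. Of these 61 lie on chromosome 3R and 28 on 2L. eIF4EHP is the only member near any of them. With the ranked list at that limit, 13 members have a region (25.5%, against 18.0% of all genes). By the deposited file lists, the thresholded sets were made from 1 more file than the ranked lists. That file was not analysed here, and its part in the difference was not tested.

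The other 11 eIF4 genes had no region in any set. The helicase eIF4A came closest, with IDRs of 0.0262 and 0.0168 in the lists over both replicates, 0.019 in replicate 1 and 0.696 in replicate 2. eIF4H1, a helicase cofactor, reached 0.0191 in replicate 1 and had no candidate in replicate 2. eIF4E6 had an IDR of 0.0493 in the list behind the reproducible set, 0.765 in that behind the larger set, 0.337 in replicate 1 and 0.791 in replicate 2. The scaffold eIF4G1 and the helicase cofactor eIF4B had no candidate in any list. The cap-binding genes eIF4E1, eIF4E3, eIF4E4, eIF4E5 and eIF4E7 and the cofactor eIF4H2 had only candidates with an IDR of 0.618 or higher.

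**Figure D3:**
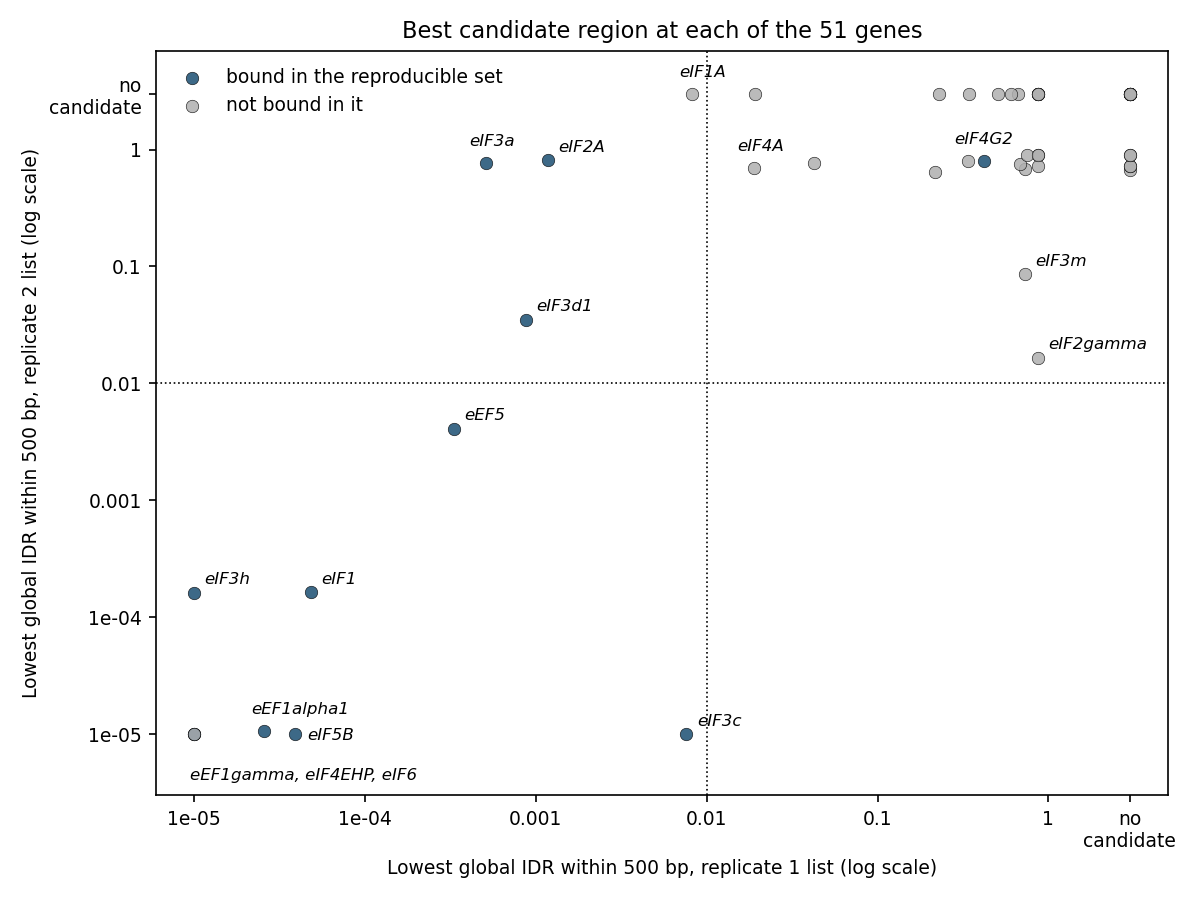
Lowest global IDR of any candidate region within 500 bp of each of the 51 genes in the ranked list of replicate 1 (x axis) and of replicate 2 (y axis), both on log scales, with genes without a candidate at the outer edge and dotted lines at 0.01. eEF1gamma, eIF4EHP and eIF6 share the lowest corner at 1e-05, eIF1A, eIF2A, eIF3a and eIF3d1 pass in replicate 1 alone, and most other genes lie in the upper right.

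Over all lists, 7 members had no candidate region within 500 bp in any: eEF2, eIF3d2, eIF3f2, eIF3i, eIF3l, eIF4B and eIF4G1. In the ranked list behind the reproducible set 35 members had one (68.6%, against 74.5% of all genes), so a candidate by itself was common. Among the 39 unbound members 23 had a candidate there, with a median IDR of 0.533.

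The 500 bp limit itself decided few members. The reproducible summits nearest to it from inside were those of eIF1 at −348 bp and eIF3h at 314 bp. From outside they were those of eIF2Bbeta at −679 bp and eIF2Bdelta at −768 bp. The eIF2Bbeta summit belongs to a region of height 2136 at −40 bp from Ugalt, and that of eIF2Bdelta to one of height 61.59 at −285 bp from CG30414. The next nearest were eIF3g1 at 1346 bp and eIF2D at −1512 bp, the latter at −40 bp from Slbp, the gene for the histone mRNA stem-loop binding protein. At the far end, the nearest summit to eIF4B was 4979374 bp away. No set holds a region on chromosome 3L past position 25443320, while genes there run to 28085293. eIF4B lies in this stretch without regions, so its lack of a region is not particular to that gene.

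The bound members' heights were close to those of other bound genes. Over the 12, the highest region of each had a median of 154.4 in the reproducible set, against 139.2 over all 2460 bound genes, whose quartiles were 92.42 and 241.5. In replicate 1 the medians were 85.71 and 87.02, and in replicate 2 they were 82.53 and 77.96. Only eIF6 and eEF1gamma lay above the upper quartile of bound genes in the reproducible set.

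**Figure D4:**
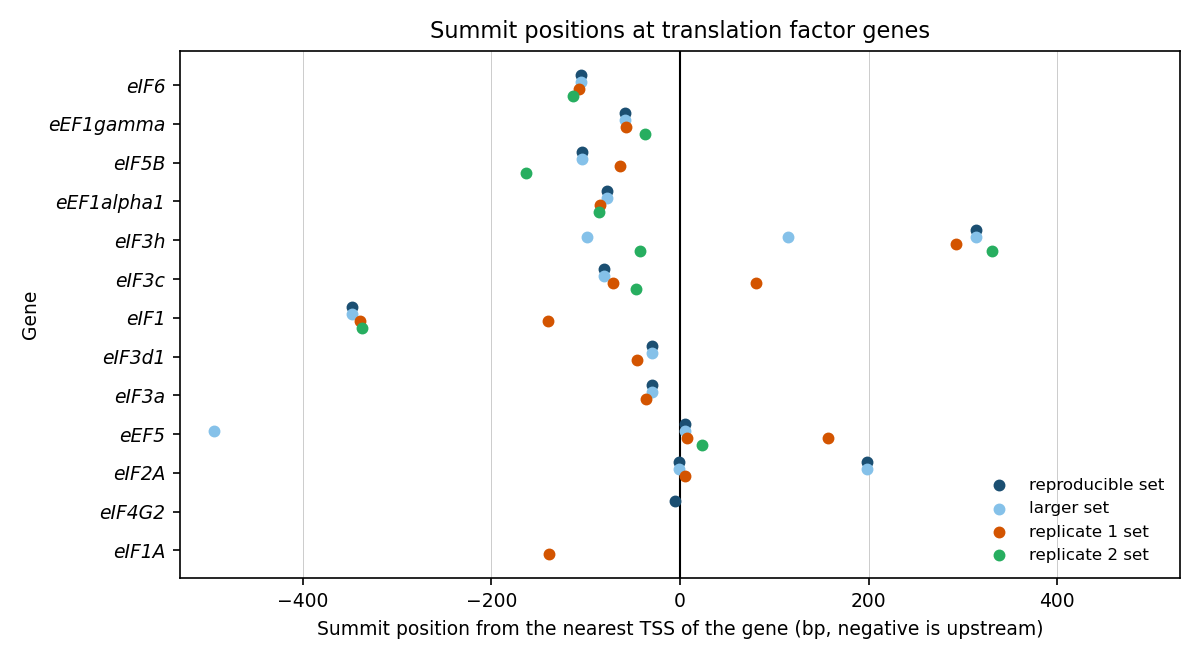
Position of every summit within 500 bp of a bound member (x axis, bp from its nearest TSS, negative is upstream), with 1 row a gene and 1 colour for each of the 4 sets. Most points lie shortly upstream of the TSS, those of the highest eIF1 regions from −348 to −337 bp and those of the highest eIF3h regions from 293 to 331 bp.

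Summits sat mostly just upstream of the gene's nearest TSS, from which these positions are measured. The median position over the 12 genes was −44 bp in the reproducible set, −60.5 bp in replicate 1 and −66.5 bp in replicate 2. Over all promoter summits it was −105, −94 and −119 bp. At or upstream of the nearest TSS were 10 of the 12, against 81.3% of all promoter summits, a near-equal share. From the main TSS, the summits at eEF1alpha1 (910 bp), eIF3h (628 bp), eIF2A (224 bp) and eEF5 (5 bp) lay downstream. For 10 of the 12 no other TSS was nearer to the summit, counting the start that eIF4G2 shares, and the exceptions were eIF1 and eIF6. Replicate 1 alone held further weak regions beside the main ones, of height 15.56 at eIF3c, 9.862 at eEF5 and 3.648 at eIF1.

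The E2F consensus lay in the region of 4 of the 12 genes, eIF1, eIF2A, eIF3d1 and eIF4G2, where 17.2% of the 1930 promoter regions and 14.8% of all 4439 regions held it. The count was 2 of 8, eEF1alpha1 and eIF1, in replicate 2's own set, where 12.7% of promoter regions held the consensus. It was 1 of 9, eIF1, at an IDR of 0.001, where the share over all regions was not computed. In the reproducible set the consensus lay 11 bp from the summit at eIF1, and 49 to 140 bp at eIF2A, eIF3d1 and eIF4G2. The eIF1 summit is nearer to RpL28 (−33 bp) than to eIF1 (−348 bp), so its motifs cannot be assigned to either gene. Neither the consensus nor the DREF core lies in the 300 bp window at the eIF1 TSS that is described below. The DREF core lay in 6 of the 12, eEF1gamma, eIF1, eIF2A, eIF3a, eIF3c and eIF6, where 9.79% of promoter regions held it. In the replicates' own sets it lay in 7 of 12 (replicate 1) and 3 of 8 (replicate 2), where the share over all regions was not computed. The motif 1 core was found at eIF5B alone (5.28% of promoter regions) and the E-box at eIF1 alone (3.99%). eEF1alpha1, eEF5 and eIF3h had none of these letters in their regions of the reproducible set. The wider replicate regions at eEF1alpha1 hold an E2F consensus. So do the 2 weaker regions at eIF3h in the larger set, 64 and 132 bp from their summits. A match is a description of the letters and not a binding site.

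The DREF core was common at the members whether bound or not. In windows of 300 bp, from 250 bp before the main TSS to 50 bp after it, it lay in 14 of the 51 promoters (27.5%), against 9.23% of all 13945. It was present in 4 of the 12 bound members (33.3%, against 14.3% of all bound genes). Of the 39 unbound members 10 held it, among them eEF1delta, eIF1A, eIF2alpha, eIF4A and eIF4B. The E2F consensus lay in 4 of the 51 windows, those of eEF1beta, eIF3d1, eIF4E6 and eIF4G2, against 14.3% of all. The E-box lay in 4 (7.84%, against 4.2% of all) and the motif 1 core in 4 (7.84%, against 6.07%).

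The polypyrimidine initiator, known from ribosomal protein promoters, was searched as CCTTTC, or in the second form CCTTTT, or in the third TCTTTC, or in the fourth TCTTTT, on the gene's strand. The second base of a match had to lie within 5 bp of the main TSS. The initiator was found at 4 members, eEF2, eIF3f1, eIF3i and eIF4A, against 1.47% of all genes. None of these 4 was bound. Of all genes with these letters 20.0% were bound, and of those without them 17.6%.

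The bound members had a median of 2 annotated TSSs a gene, against 1 for the unbound members, 1 for all genes and 1 for all bound genes. Of the 12 bound members 4 had a single TSS (33.3%), and of the 39 unbound ones 27 (69.2%), against 56.1% of all bound genes and 73.5% of all genes. A summit near any TSS makes a gene bound, so a gene with more TSSs has more chances to be called. The contrast was not tested, and nothing is read from it about these genes.

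Genes that act beside these factors were read in the same way. Over 55 related genes 12 were bound in the reproducible set (21.8%, against 17.6% of all genes). Of the 20 aminoacyl-tRNA synthetases, which charge tRNAs, 5 were bound. Their heights were 472.2 at GluProRS, 357.1 at SerRS, 285.2 at IleRS, 203.3 at ThrRS and 101.4 at AsnRS. All but AsnRS were also in both replicate sets. AlaRS and ArgRS were among the 15 not bound in the reproducible set.

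Of 7 termination and recycling genes 3 were bound. They were eRF3 (199.4), eRF1 (175.5), both release factors, and pix (48.43), which splits ribosomes. pix was in the reproducible set alone, and DENR and HBS1 were not bound there. Of 9 cap and poly(A) partners 1 was bound, larp at 160.5, and 4E-T and cup were not. Of 15 signalling genes 3 were bound, mTor at 194.2, Rheb at 110.4 and Gcn2 at 76.75, each with another gene's TSS nearer to the summit, while Akt and crc were not bound in the reproducible set. Of 4 other elongation factors, mostly mitochondrial, 0 were bound in any set.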

How the data were processed

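Binding regions from 2 biological replicates of E2f1-eGFP whole embryos (1 group) were used in the dm6 build, per the labels. An aligner or peak caller was not given in the sources used here, nor was a scaling of heights. The authors deposited for each region a height (a score), a q value and a global IDR as −log10 values, and a summit offset in bp (used as a coordinate, with no other unit). The 4 thresholded sets and the 4 ranked lists were read. The replicates' own sets gave the replicate values. Both come from the authors, and how each IDR was paired is not stated in the files. Which ranked list over both replicates lies behind which set was inferred here, by matching their regions and IDR values.

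Summits were joined to every TSS of the Ensembl annotation within 500 bp with Python 3.11.15, pandas 2.3.3 and numpy 2.4.6, and the joining was tested on simulated data. The region ends fall within the chromosome lengths of the RefSeq Release 6 genome, which gave the sequences. Motifs were searched on both strands by exact letters, and the polypyrimidine initiator on the gene's strand. No test was run: 1 group has no comparison between conditions, and shares are set beside those of all genes. The precision cannot be given, since the depth is unknown.

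Every member is named. Bound members have their values in all sets, where the larger set repeats the heights of the reproducible set. Related genes are those bound, at most 5 a list, and the first 2 unbound by alphabet. The members, lists, motifs and printed sequences were chosen with earlier results of these data known. Alternatives were the larger set, each replicate alone, an IDR of 0.001, distances of 200 and 1000 bp, region overlap, nearest TSS and narrower motif windows. The ranked list at an IDR of 0.01 was added after seeing the data.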

Additional observations from a re-analysis of the deposited data

How the results depend on the processing

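The count of 12 bound members stayed within 8 to 14 under every alternative run. It was 9 at an IDR of 0.001, without eIF2A, eIF3d1 and eIF4G2, where 12.1% of all genes were bound. It was 10 at 200 bp (12.4%), without eIF1 and eIF3h, and 14 at 1000 bp (20.6%), with eIF2Bbeta and eIF2Bdelta. With regions that overlap a TSS it was 9 (9.22%), without eEF1alpha1, eIF1 and eIF3h, and with summits nearest to that gene alone it was 9 (12.3%), without eIF1, eIF4G2 and eIF6. The added ranked list gave 13. The 8 genes in both replicate sets became 6 at an IDR of 0.001 (8.96% of all genes), where eEF5 and eIF3c were lost, 6 at 200 bp (7.59%), 9 at 1000 bp (13.6%) and 8 with summits within 100 bp of each other (11.1%). The count of 4 genes with an E2F consensus became 1 (eIF1) at an IDR of 0.001. With matches wholly within 50 bp of the summit it was 2 (eEF1alpha1 and eIF1), where 4.17% of all regions held one. Of these only eIF1 is among the 4. The eEF1alpha1 match lies just outside its 97 bp region, so the count by region depends on region width. In a single replicate it was 2 to 4, where 12.7% (replicate 2) and 18.8% (replicate 1) of promoter regions held one. The median position of −44 bp was −58 bp in the larger set, −77 bp at an IDR of 0.001, −67.5 bp at 1000 bp, and −66.5 to −60.5 bp in a single replicate. The 10 of 12 genes whose own TSS was nearest became 8 of 12 in replicate 1 and 6 of 8 in replicate 2. The 12 related genes became 6 with regions that overlap a TSS. The cause of these shifts was not tested. Over the larger set, each replicate alone, the IDR of 0.001 and both other distances, single members were kept as bound in 61 of 72 gene and setting pairs. No paired analysis was possible because there is 1 group. Heights and IDR depend on read depth, which is unknown, so a gene without a region is not shown to be free of E2f1.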
